A study of Mus musculus with 9 samples.

Results

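The genes described here are 30 blood cell genes: surface proteins of stem cells, leukocytes, platelets and myeloid cells, the erythropoietin receptor and globins, and proteins of the blood cell cytoskeleton and signalling. They were taken by name from a list that was chosen with earlier results of these data known. They are 30 of the 21887 protein-coding genes of mouse build GRCm38 (mm10) on chromosomes 1 to 19, X and Y. All 30 names were found in the annotation. A gene was counted as having an end peak in a library when a peak reached within 1000 bp of either annotated end, and peaks that lay only inside the gene were counted apart as body peaks.

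Chromatin immunoprecipitation with sequencing (ChIP-seq) mapped the histone deacetylases Hdac1 and Hdac2 in haemogenic endothelium made in culture from mouse embryonic stem cells. The 3 cell lines were Bry, Hd1_loxlox and Hd2lox, all of strain C57BL/6 and all untreated. Bry was at passages 16 to 19 and the other lines at passages 25 to 30. Each line gave 1 library with an Hdac1 antibody, 1 with an Hdac2 antibody and 1 input library, and the 3 inputs were not analysed here. The Hdac1 list of Hd2lox was deposited under another spelling of the line, Hd2loxlox, and its label was followed here. The labels do not explain the line names, nor state whether an allele had been deleted or whether a line is 1 clone. Nothing in the labels places the lines in separate experiments, so any p-value reflects how far these libraries spread, which can be technical.

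Haemogenic endothelium is the specialised vessel lining from which the first blood stem and progenitor cells bud. Kit is already present on haemogenic endothelium, Itga2b (CD41) appears as its cells turn to blood, and Ptprc (CD45) and the proteins of mature lineages follow. Hdac1 and Hdac2 are closely related enzymes that remove acetyl groups from histones, work inside the Sin3, NuRD and CoREST complexes, and are often found at the promoters of active genes, where acetylation turns over, as well as at silenced ones.

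The 6 peak lists held between 5161 and 9279 peaks, 46202 in all, and gave positions with no height, score or read count. Read depth is therefore unknown, and an absent peak can also mean that reads were too few there. A peak present in few cells and a weak signal in all cells cannot be told apart. The Hdac2 list of Hd1_loxlox stood apart from the others: an end peak was present at 2.71% of protein-coding genes in it, against 13.5% to 34.4% in the other 5 lists. It enters each Hdac2 mean and each comparison within Hd1_loxlox below, and the main values without it are given beside them. An end peak in at least 1 list was present at 47.8% of all protein-coding genes. Of the markers of haemogenic endothelium, 6 of 8 had one (none at Tek or Runx1), as did 2 of 3 cardiac markers, while no smooth muscle marker (0 of 2) and no pluripotency marker (0 of 2) had one. Peaks are not expression, so these counts do not test the labelled cell type.

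Few of the blood cell genes carried a peak of either deacetylase. Of the 30, 6 had an end peak in at least 1 list, 4 more had a body peak only, and 20 had no peak at an end or inside in any list. Among all protein-coding genes, 47.8% had an end peak in a list, 9.19% had body peaks only, and 43% had none, so the 6, 4 and 20 genes correspond to 20%, 13.3% and 66.7%. Genes that lie wholly within their end windows, such as the globins and Pf4 (949 bp), cannot have body peaks only. Gene length was not taken into account in these shares. The 6 genes were Kit, Itga2b, Itgb3, Gp1bb, Epor and Tyrobp. The 4 genes with body peaks only were Vav1, Ptprc, Lcp1 and Laptm5. Without the Hdac2 list of Hd1_loxlox, Tyrobp and Lcp1 dropped out, leaving 5 genes with an end peak and 3 with body peaks only. The shares of all genes above are over the 6 lists and were not counted again without that list.

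By library, the Hdac1 list of Bry held end peaks at 3 of the 30 genes (10%), where the background over all genes was 31.9%. The Hdac2 list of Bry held them at the same 3 genes, Kit, Itga2b and Itgb3, against a background of 34.4%. The Hdac1 list of Hd1_loxlox held the most, 5 genes (16.7%, background 31.7%), adding Gp1bb and Epor. The 3 remaining lists held 1 gene each (3.33%): Tyrobp in Hdac2 of Hd1_loxlox (background 2.71%), and Gp1bb in both Hdac1 (background 24.3%) and Hdac2 (background 13.5%) of Hd2lox. The share of blood cell genes was thus below that of all genes in 5 of the 6 lists and close to it in the sparse Hdac2 list of Hd1_loxlox.

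**Figure D1:**
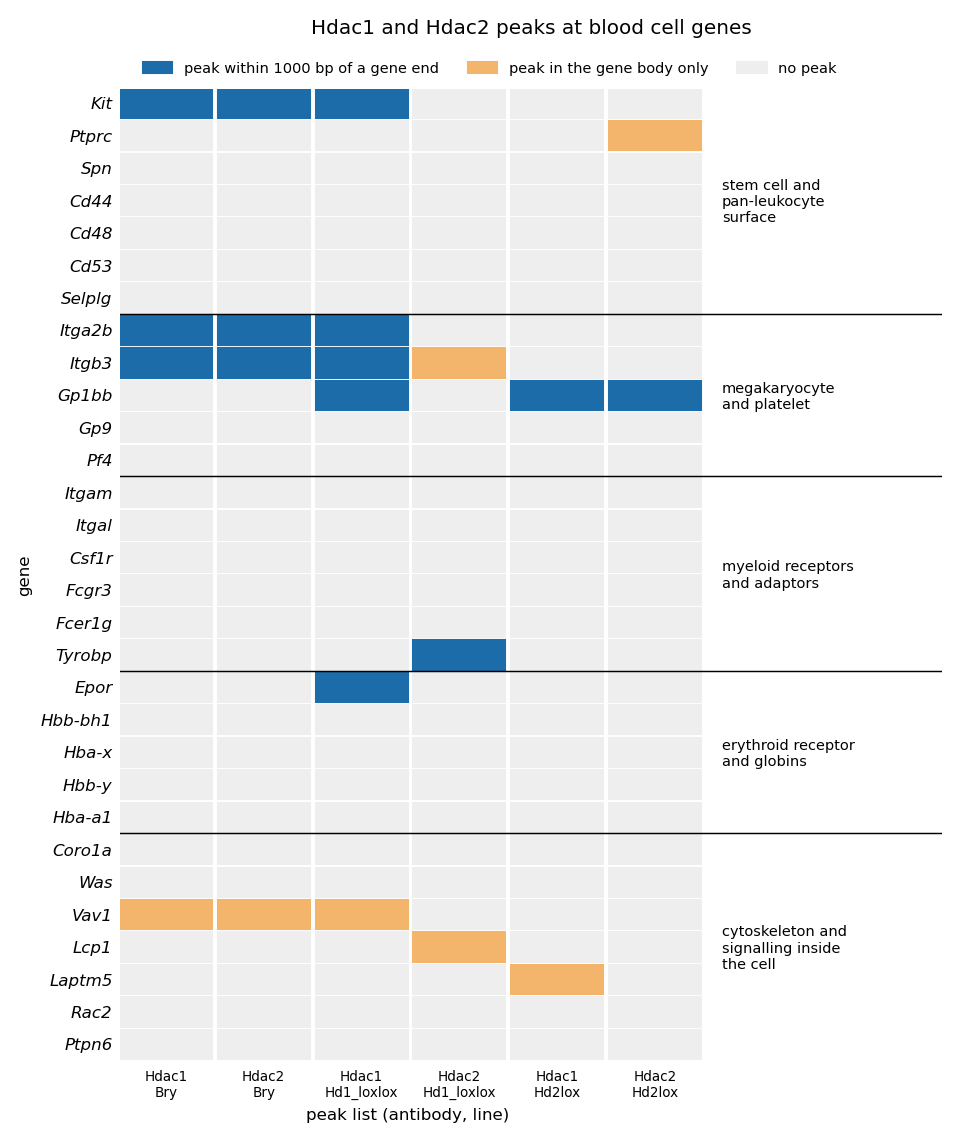
Peaks of the 6 libraries (columns) at the 30 blood cell genes (rows), grouped by role. Blue cells have a peak within 1000 bp of a gene end, orange cells have a peak inside the gene only, and grey cells have none. Kit, Itga2b and Itgb3 share the left 3 columns, Gp1bb has its own set of 3, and 20 rows are grey throughout.

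**Figure D2:**
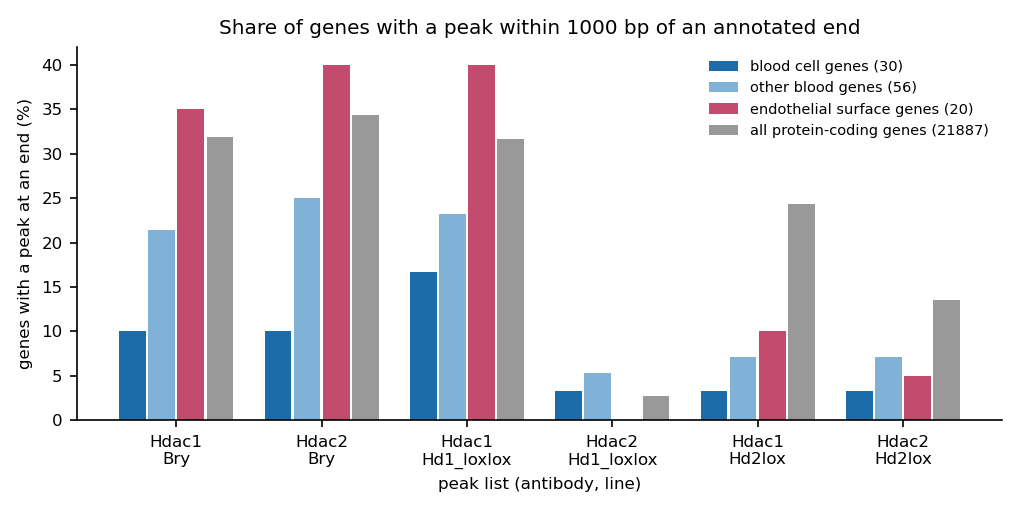
Percentage of genes with a peak within 1000 bp of an annotated end in each library (vertical axis, from 0), for the 30 blood cell genes, 56 other blood genes, 20 endothelial surface genes and all 21887 protein-coding genes. Each bar is 1 library, so there are no error bars. The blood cell genes stand at 3.33% to 16.7% and all genes at 2.71% to 34.4%.

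The promoter sequences of 6 of these genes are shown because they cover the kinds of result found: peaks over the start (Kit, Itga2b, Epor), peaks over a short gene but not its start (Gp1bb), a peak deep in the body (Vav1) and no peak (Pf4). Each runs 5′ to 3′ on the gene's own strand from 250 bases before to 50 after the start, from RefSeq on GRCm38.p6. Capitals mark every match, on either strand, to the letters of 5 short motifs. Sites of the Runx factors were searched as TGTGGT, and those of the Gata factors by the shorter run GATAA. Sites of the Ets family were searched by the letters GGAAGT, and the box that Sp factors bind, called the GC box, by the run GGGCGG. The TATA box, which places the start in some genes, was searched in turn by TATAAA. No matches overlapped in these 6 sequences.
Kit (chr5:75574737-75575036, plus strand): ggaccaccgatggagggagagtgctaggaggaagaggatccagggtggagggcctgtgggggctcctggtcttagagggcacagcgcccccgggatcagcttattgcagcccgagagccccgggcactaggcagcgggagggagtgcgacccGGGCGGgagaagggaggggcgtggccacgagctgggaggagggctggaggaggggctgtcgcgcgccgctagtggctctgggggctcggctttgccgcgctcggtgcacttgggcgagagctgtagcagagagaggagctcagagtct
Itga2b (chr11:102469834-102470133, minus strand): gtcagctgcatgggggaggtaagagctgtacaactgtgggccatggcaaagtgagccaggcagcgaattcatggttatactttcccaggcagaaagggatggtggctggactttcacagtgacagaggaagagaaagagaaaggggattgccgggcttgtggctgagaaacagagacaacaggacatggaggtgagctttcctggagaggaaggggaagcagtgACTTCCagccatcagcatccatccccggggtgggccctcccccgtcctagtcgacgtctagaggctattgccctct
Epor (chr9:21963527-21963826, minus strand): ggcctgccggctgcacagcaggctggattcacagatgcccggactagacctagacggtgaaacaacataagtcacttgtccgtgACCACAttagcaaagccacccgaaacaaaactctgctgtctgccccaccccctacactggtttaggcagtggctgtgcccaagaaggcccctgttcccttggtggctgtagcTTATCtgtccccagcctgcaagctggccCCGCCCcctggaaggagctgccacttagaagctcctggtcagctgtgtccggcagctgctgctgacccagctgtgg
Gp1bb (chr16:18622354-18622653, minus strand): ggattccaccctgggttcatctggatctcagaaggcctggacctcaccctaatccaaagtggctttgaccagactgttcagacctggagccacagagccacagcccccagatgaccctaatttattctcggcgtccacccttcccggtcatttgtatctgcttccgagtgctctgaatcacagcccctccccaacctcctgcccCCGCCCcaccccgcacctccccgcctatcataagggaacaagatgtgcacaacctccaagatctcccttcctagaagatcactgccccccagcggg
Vav1 (chr17:57278850-57279149, plus strand): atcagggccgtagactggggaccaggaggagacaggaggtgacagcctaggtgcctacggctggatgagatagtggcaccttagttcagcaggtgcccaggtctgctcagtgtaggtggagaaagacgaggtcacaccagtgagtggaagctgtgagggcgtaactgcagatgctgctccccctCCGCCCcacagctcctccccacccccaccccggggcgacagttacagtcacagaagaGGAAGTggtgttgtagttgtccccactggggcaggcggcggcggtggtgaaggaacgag
Pf4 (chr5:90772185-90772484, plus strand): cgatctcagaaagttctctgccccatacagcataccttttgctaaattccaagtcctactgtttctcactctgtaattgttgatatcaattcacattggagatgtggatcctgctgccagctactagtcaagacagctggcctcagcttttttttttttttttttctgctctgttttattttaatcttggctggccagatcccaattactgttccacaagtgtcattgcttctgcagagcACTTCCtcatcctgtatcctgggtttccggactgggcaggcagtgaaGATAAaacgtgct

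Positions are those of the first capital relative to the start. In Kit the capitals are a GC box at -98, and in Itga2b an Ets match at -26. Epor, the erythropoietin receptor, holds matches for Runx at -166, Gata at -54 and the GC box at -26. Gp1bb holds a GC box at -46. Vav1 holds a GC box at -66 and an Ets match at -9, and Pf4 an Ets match at -10 and a Gata match at 37. A match describes the letters only and says nothing of whether the factor was bound.

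Among stem cell and pan-leukocyte surface genes, 1 of 7 had an end peak in at least 1 list, where 47.8% of all genes did. The gene was Kit, the receptor for stem cell factor, which marks blood progenitors and the haemogenic endothelium they come from. In Bry, the Hdac1 peak at Kit lay at chr5:75574475-75576451 (1977 bp) and the Hdac2 peak at chr5:75574233-75576312 (2080 bp). In Hd1_loxlox, the Hdac1 peak lay at chr5:75574413-75576560 (2148 bp). All 3 covered the start of Kit and the promoter printed above, had 1838 bp in common, and were wider than 84.8% to 89.9% of the peaks in their own lists. Counted from the start, their first bases lay at -512, -754 and -574 and their last at 1464, 1325 and 1573.

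The other 3 libraries had no peak at either end of Kit. The nearest Hdac2 peak of Hd1_loxlox was 4.12 kb past the gene's far end, at chr5:75660842-75662057, and another of that list lay 14.1 kb before the start. In Hd2lox the nearest Hdac2 peak, 760 bp long, lay 6.72 kb before the start, and the nearest Hdac1 peak was 483 kb away. So Kit had peaks of both antibodies at its start in Bry, of Hdac1 in Hd1_loxlox, where the Hdac2 list is the one that stood apart, and of neither in Hd2lox.

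Ptprc encodes CD45, the phosphatase on all nucleated blood cells. It had 1 body peak, from Hdac2 in Hd2lox, 1479 bp inside the gene from its downstream end and 760 bp long. That is the shortest length in its list, which 27.7% of the list's peaks have. Spn (CD43, a sialomucin of leukocytes), Cd44 (a hyaluronan receptor), Cd48 (of the SLAM family), Cd53 (a tetraspanin) and Selplg (the P-selectin ligand) had no peak at an end or inside.

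Of the 5 genes of megakaryocytes and platelets, 3 had an end peak in at least 1 list, where 47.8% of all genes did. The peaks of 1 of them, Gp1bb, also lie at a neighbour. Itga2b and Itgb3 encode the alpha and beta chains of 1 receptor, the platelet fibrinogen receptor, of which Itga2b (CD41) is also an early mark of cells turning to blood. At Itga2b the Bry peaks lay at chr11:102469295-102470760 for Hdac1 (1466 bp) and chr11:102469217-102470757 for Hdac2 (1541 bp). The Hdac1 peak of Hd1_loxlox lay at chr11:102469496-102470782 (1287 bp). All 3 covered the start of Itga2b, with centres at -144, -104 and -256 bases from it, and had 1262 bp in common.

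The other 3 lists had no peak at Itga2b, although 2 of them had peaks close by. Peaks at an end of the neighbour Fam171a2, in some lists also of Grn, were present in both Bry lists, the Hdac1 list of Hd1_loxlox and both Hd2lox lists, and the nearest to Itga2b in Hd2lox lay 5.20 kb (Hdac1) and 14.7 kb (Hdac2) from the gene. In the Hdac2 list of Hd1_loxlox the nearest peak was 100.1 kb away. The neighbourhood was thus marked in all 3 lines, while the start of Itga2b itself had peaks in Bry and Hd1_loxlox.

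Itgb3, on the same chromosome, had end peaks in the same 3 libraries. The Bry peaks lay at chr11:104606614-104608638 for Hdac1 (2025 bp) and chr11:104607462-104608943 for Hdac2 (1482 bp), and the Hdac1 peak of Hd1_loxlox at chr11:104607196-104608816 (1621 bp). All 3 covered the lower annotated end of the gene and had 1177 bp in common; the table of promoters has no entry for Itgb3, so the end was not assigned to its start or stop.

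Itgb3 also held body peaks. Both Bry lists had a peak just inside: the Hdac1 peak was 1076 bp long and the Hdac2 peak 998 bp, with 807 bp in common. The Hdac2 list of Hd1_loxlox had 2 peaks much deeper in the gene, of 1077 and 1199 bp, and neither overlapped a peak of another library. In Hd2lox the nearest peaks lay 37.2 kb (Hdac1) and 37.1 kb (Hdac2) away. The pattern of both Bry lists with the Hdac1 list of Hd1_loxlox and no other list, seen at Kit, Itga2b and Itgb3 (3 of 30), was present at 8.45% of all genes.

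Gp1bb, a chain of the platelet receptor for von Willebrand factor, had end peaks in another set of 3 libraries. The Hdac1 peaks lay at chr16:18620373-18621884 in Hd1_loxlox (1512 bp) and chr16:18620037-18621675 in Hd2lox (1639 bp), and the Hdac2 peak of Hd2lox at chr16:18620506-18621467 (962 bp). This set of libraries was found at 0.512% of all genes. None of the 3 peaks covered the start of Gp1bb: the nearest edge of each lay 519 to 936 bases after it in a gene of 2085 bp, and the Hdac1 peak of Hd2lox ran on past the gene's other end. All 3 also came within 1000 bp of an end of Septin5, which overlaps Gp1bb, so they cannot be given to 1 gene over the other.

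In Bry the peaks nearest to Gp1bb lay in or at Septin5. The Hdac1 peak lay 3.73 kb away inside Septin5, and the Hdac2 peak 6.61 kb away at its far end. The nearest Hdac2 peak of Hd1_loxlox was 351.8 kb off. Gp9, another chain of the same receptor, and Pf4, a chemokine stored in platelet granules, had no peak in any list: the nearest lay 30.6 to 44.7 kb from Gp9 and 157 to 405 kb from Pf4.

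**Figure D3:**
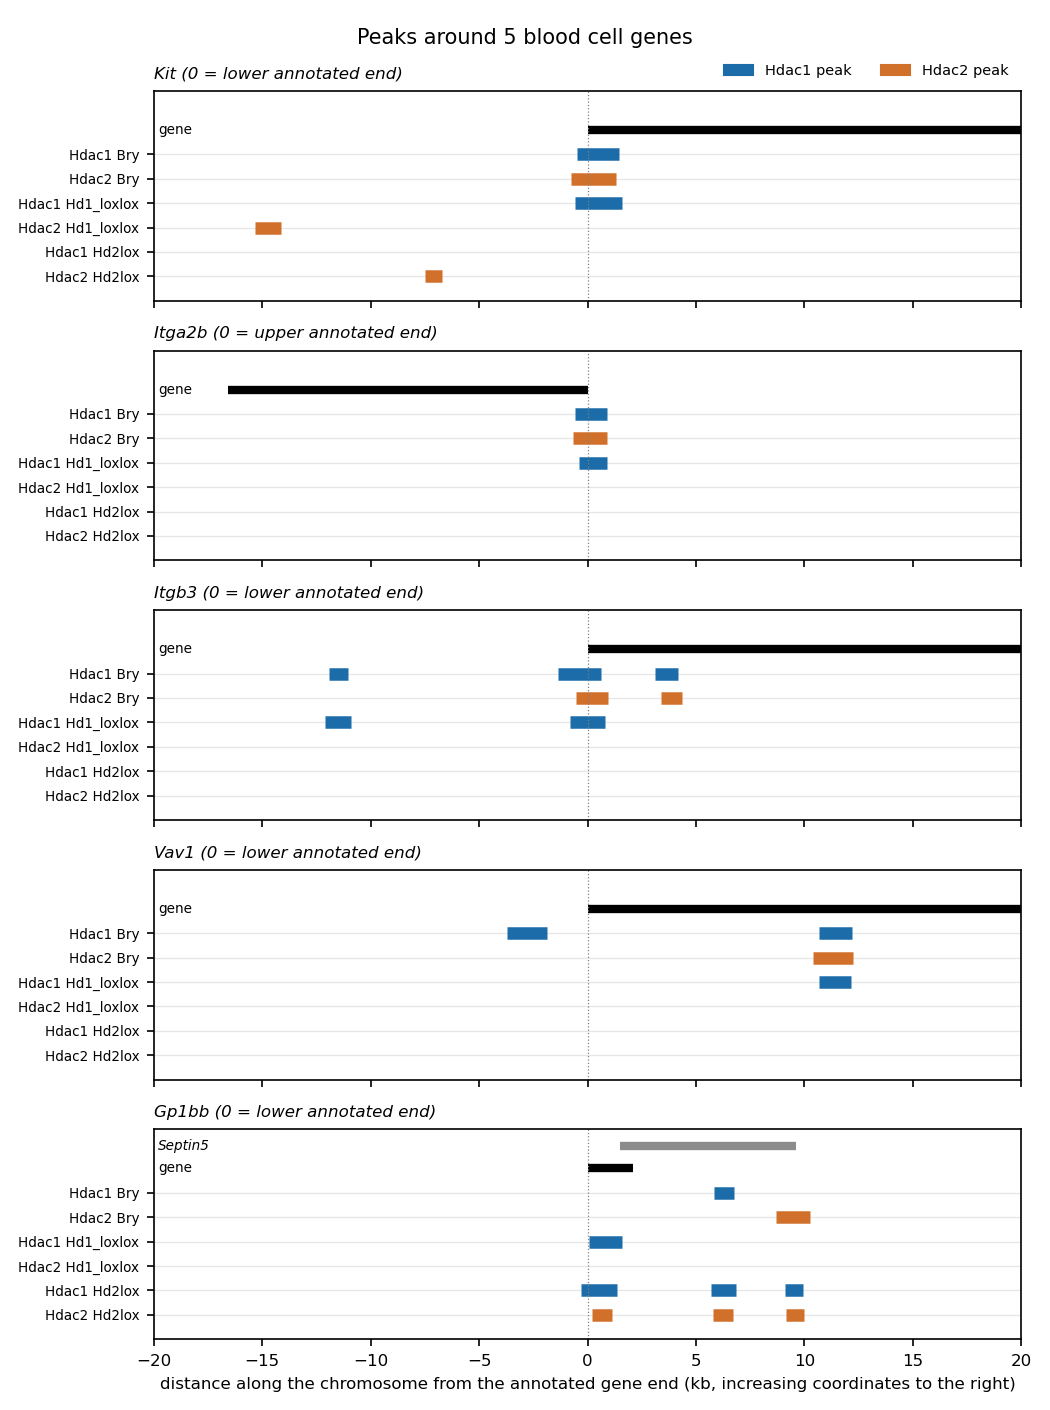
Peaks (coloured bars, Hdac1 blue and Hdac2 orange) of the 6 libraries around Kit, Itga2b, Itgb3, Vav1 and Gp1bb, drawn to scale within 20 kb of the annotated end named above each panel. Black bars are the genes and the grey bar is Septin5. The peaks of the 3 libraries at Kit, Itga2b and Itgb3 lie over the same end, and those of Vav1 lie together 10.4 kb or more inside the gene.

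Of 6 myeloid receptors and adaptors, 1 had an end peak in a list (all genes 47.8%). Tyrobp, the adaptor that couples many myeloid receptors to tyrosine kinases, had an Hdac2 peak in Hd1_loxlox at chr7:30413587-30415396 (1810 bp), wider than 97.2% of that list. It covered the lower end of the gene and also came within 1000 bp of the end of a non-coding RNA gene, Gm32029. The call rests on the list that stood apart. In the Hdac1 list of the same line the nearest peak was 3.80 kb away, at the end of Nfkbid. Itgam and Itgal (the alpha chains of leukocyte integrins), Csf1r (the receptor for macrophage colony-stimulating factor), Fcgr3 (a receptor for immunoglobulin G) and Fcer1g (the signalling chain that Fc receptors share) had no peak.

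Of the 5 erythroid genes, 1 had an end peak in a list (all genes 47.8%). Epor, through which erythropoietin keeps red cell precursors alive, had an Hdac1 peak in Hd1_loxlox at chr9:21961768-21963993 (2226 bp), from -417 to 1808 bases relative to the start. The peak covered the start and the promoter printed above. That list and the Hdac2 list of Bry also had a peak 7.84 and 7.97 kb from the gene. None of the 4 globin genes, the embryonic Hbb-bh1, Hbb-y and Hba-x and the alpha globin Hba-a1, had a peak.

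None of the 7 genes of the cytoskeleton and of signalling inside the cell had an end peak (all genes 47.8%), and 3 had body peaks only (all genes 9.19%, gene length not taken into account). Vav1, an exchange factor that activates Rac in blood cells, had a body peak in the same 3 libraries as Kit. The Hdac1 peak of Bry lay at chr17:57289786-57291278 (1493 bp), the Hdac2 peak of Bry at chr17:57289481-57291346 (1866 bp) and the Hdac1 peak of Hd1_loxlox at chr17:57289763-57291249 (1487 bp). They had 1464 bp in common, and their centres lay 11313 to 11432 bases after the start, well outside the promoter printed above. The Hdac1 list of Bry held a further peak 1.85 kb before the gene.

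The other body peaks were in 1 list each. Lcp1 (plastin, an actin-bundling protein) had an Hdac2 peak of 1398 bp in Hd1_loxlox, the list that stood apart. Laptm5 (a lysosomal membrane protein of blood cells) had an Hdac1 peak of 1068 bp in Hd2lox. By list, body peaks without an end peak were present at 1 blood cell gene in each of 5 lists and at 2 (Itgb3, Lcp1) in the Hdac2 list of Hd1_loxlox. Over all genes the background of the Hdac1 lists was 3.48% in Bry, 3.5% in Hd1_loxlox and 5.05% in Hd2lox. That of the Hdac2 lists was 4.49%, 8.32% and 8.33% in the same order. Coro1a (coronin), Was (the Wiskott-Aldrich protein, which starts actin branching), Rac2 (a blood cell GTPase) and Ptpn6 (an inhibitory phosphatase) had no peak.

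Of the 14 end peaks, 12 covered the annotated end base itself. The other 2, both at Gp1bb, lay 54 and 187 bp from it. Just outside the limit of 1000 bp were the body peak of Ptprc, 1479 bp from an end, and the Hdac1 peak of Bry 1.85 kb before Vav1.

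End peaks of Hdac1 recurred between lines at 4 of these genes and those of Hdac2 at none, and both shares were below the background. In at least 2 of 3 lines, Hdac1 had end peaks at 4 of the 30 genes (13.3%; background 30.2%), namely Kit, Itga2b, Itgb3 and Gp1bb. Hdac2 had them at 0 (background 10.6%), and still at 0 when the Hdac2 list of Hd1_loxlox was left out and both other lines were required. In those same lines, Bry and Hd2lox, the Hdac1 count was also 0. No gene had an end peak of Hdac1 in all 3 lines (background 14.6%), of Hdac2 in all 3 (background 0.603%), of any kind in 4 or more lists (background 16.2%) or in all 6 (background 0.448%), and none had Hdac1 in all 3 lines with Hdac2 in none (background 0.676%). No test was made of the counts over these genes. The Hdac1 count rests on Hd1_loxlox, since each of the 4 genes had a peak there: with both remaining lines required, it was 0 without Hd1_loxlox, 1 (Gp1bb) without Bry and 3 without Hd2lox. The share of all genes with both remaining lines required was not counted, so the counts under that rule have no background here.

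Per library, Hdac1 had end peaks at 3 ± 2 blood cell genes and Hdac2 at 1.67 ± 1.15 (SD, n = 3 lines). The difference within a line was 0 in Bry, 4 in Hd1_loxlox and 0 in Hd2lox, so the mean difference of 1.33 rests on Hd1_loxlox. It was 0 without that line and 1 without its Hdac2 list alone. Over all genes the corresponding numbers were 6413 ± 951.0 and 3691 ± 3528, a difference of 2722 that was smaller than the SD of the Hdac2 libraries (exact two-sided permutation test, p = 0.4, n = 3 against 3). Without the Hdac2 list of Hd1_loxlox that difference fell to 1174 genes (exact permutation p = 0.7). With 3 libraries against 3 the smallest p that test allows is 0.1, so no comparison of the antibodies here can pass 0.05.

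The length of the peaks at the ends, with 0 where there was none, was compared between antibodies at each of the 4 genes with end peaks in 3 lists. At Kit it was 1375 ± 1194 bp for Hdac1 and 693 ± 1201 bp for Hdac2 (exact permutation test, unadjusted p = 0.7, n = 3). At Itga2b it was 918 ± 799.7 and 514 ± 889.7 bp (exact permutation p = 1, n = 3). At Itgb3 it was 1215 ± 1072 and 494 ± 855.6 bp, and at Gp1bb 1050 ± 912 and 321 ± 555 bp (exact permutation p = 0.4 for each, n = 3). At all 4 genes the groups overlapped, because each antibody had at least 1 library with no peak. Within Bry the length of Hdac1 minus that of Hdac2 was -103 bp at Kit and -75 bp at Itga2b, and the higher Hdac1 means at both genes rest on Hd1_loxlox. Without the Hdac2 list of that line, the difference of means moved from 682 to 335 bp at Kit and from 404 to 147 bp at Itga2b (exact permutation p = 0.8 and 1). It moved from 721 to 474 bp at Itgb3 and from 730 to 569 bp at Gp1bb (exact permutation p = 0.6 for each). With windows of 5000 bp the difference at Kit was 276 bp.

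For the 20 genes without a peak, the nearest peak of the Hdac1 lists lay at the end of another gene in 16 cases (80%) in each line. Over all protein-coding genes without a peak in any list, the share was 80% in Bry, 79.4% in Hd1_loxlox and 61% in Hd2lox. In the Hdac2 lists the counts were 14 (70%) in Bry, 2 (10%) in Hd1_loxlox and 4 (20%) in Hd2lox, against 74.3%, 15.6% and 32.1% of all such genes. Nearest peaks at another gene's end were therefore about as common as for other genes without a peak, apart from the Hd2lox lists. The median distance of the 20 genes was 58.6 kb in Hdac1 and 47.5 kb in Hdac2 of Bry, where that of all genes without a peak was 174.2 and 143.2 kb. In the other 4 lists it was 49.3 to 108.6 kb for the 20 genes and 104.9 to 237.0 kb for all such genes. The closest case was Coro1a. Its nearest peak lay at the ends of Bola2 and Slx1b, 2.71 kb away in Hdac1 and 3.53 kb in Hdac2 of Bry and 2.92 kb in Hdac1 of Hd1_loxlox, while in both Hd2lox lists the nearest lay 143 kb off.

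Several of these neighbours recurred in list after list. A peak at Zfp768, a zinc finger gene, was nearest to Itgal in 4 lists, 9.61 to 9.86 kb away. A peak at Iscu and Sart3 was nearest to Selplg in 4 lists, at 44.3 to 44.5 kb, and a peak at Hmgxb3 was nearest to Csf1r in 4, at 43.8 to 45.3 kb. A peak at Phb2 and Emg1 lay 7.15 and 7.48 kb from Ptpn6 in the Hdac1 lists of Bry and Hd1_loxlox. That the neighbours had a peak and the blood cell genes named here had none follows from how both were picked, so it is no separate result.

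The globins differed by cluster. The nearest peak to the alpha globins Hba-x and Hba-a1 lay at the end of Nprl3, the neighbour whose introns hold the alpha globin enhancers, in the Hdac2 list of Bry (8.52 and 15.6 kb) and the Hdac1 list of Hd1_loxlox (8.78 and 15.9 kb). In the Hdac1 lists of Bry and Hd2lox it lay at Rhbdf1, further out. The beta-like globins Hbb-bh1 and Hbb-y had their nearest peak 56.4 kb away or further in the 6 lists, and in the Hdac1 lists of Hd1_loxlox and Hd2lox it lay 1399 and 1116 kb from Hbb-bh1. Genes of 1 cluster share their nearest peaks and are not separate observations.

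Over all 30 genes, the median distance to the nearest peak was larger than over all genes in 4 lists. It was 54.2 against 28.1 kb for Hdac1 and 44.8 against 18.1 kb for Hdac2 in Bry. It was 44.7 against 30.3 kb for Hdac1 of Hd1_loxlox and 84.5 against 38.2 kb for Hdac1 of Hd2lox. In the Hdac2 lists of Hd1_loxlox and Hd2lox it was smaller, 78.9 against 123.3 kb and 38.0 against 49.5 kb. Those are the lists in which the fewest genes had end peaks. Between 5 and 11 of the 30 (16.7% to 36.7%) had a peak within 10 kb, depending on the list, against 15.6% to 45.5% of all genes. The largest distance, 24500 kb at Was on chromosome X, is from the Hdac2 list of Hd1_loxlox, which has 2 peaks on that chromosome.

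**Figure D4:**
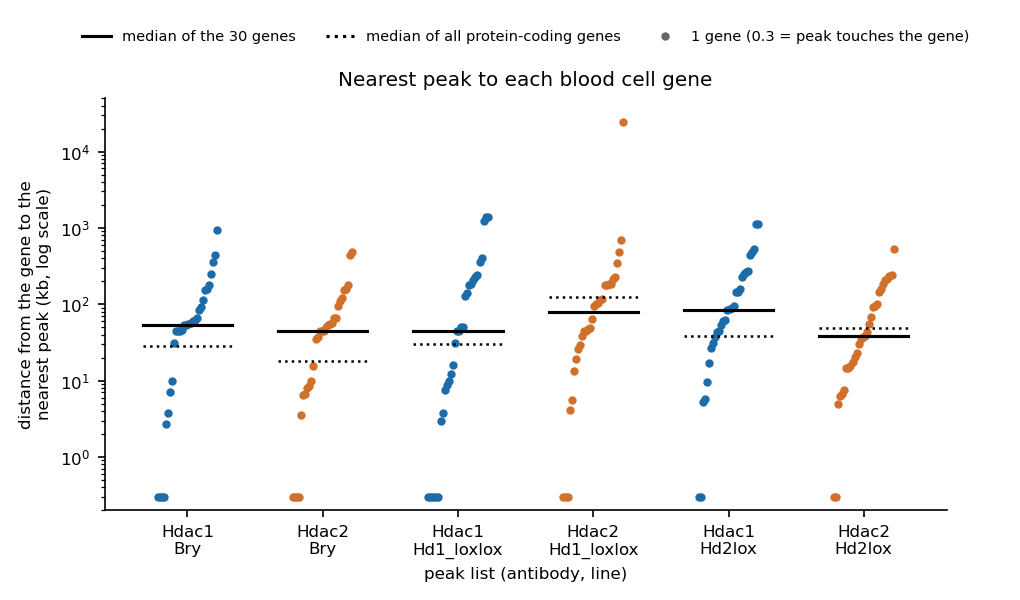
Distance from each of the 30 blood cell genes to the nearest peak in each library (vertical axis, kb, log scale; genes touched by a peak are drawn at 0.3). Solid lines are medians of the 30 genes and dotted lines medians of all protein-coding genes. The solid line is above the dotted in 4 libraries and below it in the Hdac2 libraries of Hd1_loxlox and Hd2lox.

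The promoters of the blood cell genes had few CpG dinucleotides. Of the 30 genes, 23 had an entry among 17492 genes in the promoter table. Their median CpG ratio, the observed number over that expected from base composition in the 300 promoter bases, was 0.266, against 0.576 for all genes in the table. It was below 0.6 in 20 of the 23 (87.0%), against 51.7% of all genes, a division chosen after the values were seen. The 3 at or above it were Kit (0.621), Lcp1 (0.613) and Coro1a (0.703), so of the 4 genes with an end peak and an entry (Kit, Itga2b, Gp1bb and Epor) Kit alone lay at or above 0.6.

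CpG content moved with peaks across all genes of the table. Genes with a peak within 1000 bp of a start in 3 or more lists (29.4% of the table) had a median ratio of 0.851, and those with none in any list (51.8%) a median of 0.247. The blood cell genes stood at 3 of 23 (13.0%) and 19 of 23 (82.6%). Among genes below 0.6, the Hdac1 lists had a peak at a start of 9.03% in Bry, 9.24% in Hd1_loxlox and 6.8% in Hd2lox. Of the 20 blood cell genes below 0.6 they had one at 1 (5%), 3 (15%) and 1 (5%). The Hdac2 lists had one at 11.1%, 1.25% and 3.96% of all genes below 0.6 in the same order of lines, and at 1 (5%), 0 and 1 (5%) of the blood cell genes. Set beside genes of like CpG content, then, the shares of the blood cell genes lay on both sides of the background, each resting on 3 genes or fewer. Gp1bb, whose peaks cannot be given to it over Septin5, is counted in both lists above the background. The part of CpG content in their low counts was not tested.

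**Figure D5:**
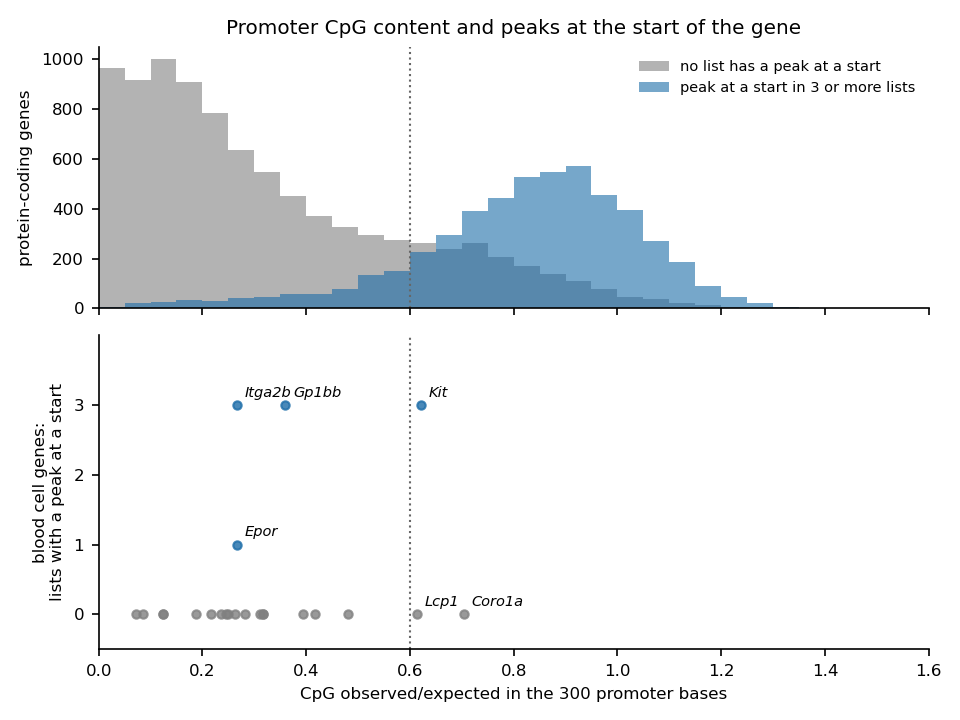
Promoter CpG ratio (observed over expected, horizontal axis) against peaks at the start. The upper panel counts all protein-coding genes with no peak at a start in any list (grey) and with one in 3 or more lists (blue), and the lower panel gives the number of lists for each of 23 blood cell genes. The dotted line is at 0.6; Itga2b (0.266), Gp1bb (0.360) and Epor (0.266) lie to its left and Kit to its right.

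Motif letters were counted in the same 300 bases on both strands. Ets letters were in 12 of 23 promoters of blood cell genes (52.2%), where 25.1% of all promoters held them. Runx letters were in 6 (26.1%, all promoters 15.1%) and Gata letters in 7 (30.4%, all promoters 23.0%). GC boxes were in 9 (39.1%, all promoters 46.3%) and TATA boxes in 3 (13.0%, all promoters 13.3%). The 7 with Gata letters were Cd44, Gp9, Pf4, Hba-x, Hbb-y, Hba-a1 and Epor. Epor had a peak at its start, in the Hdac1 list of Hd1_loxlox, and the other genes with Gata letters had none. With or without Gata letters, 19 of the 23 genes (82.6%) had no peak at a start in any list. No test was made of these counts.

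Wider lists put the 30 genes in context. Of 56 other blood genes, Hdac1 had end peaks in at least 2 of 3 lines at 11 (19.6%) and Hdac2 at 5 (8.93%), and of 20 endothelial surface genes Hdac1 had them at 6 (30%) and Hdac2 at 0. The shares over all genes are 30.2% for Hdac1 and 10.6% for Hdac2, so the endothelial share for Hdac1 was close to its background. The genes in 4 or more lists were Itga6 (an integrin chain for laminin) in all 6, Vav3 (a relative of Vav1) in 5, and Flt1 (a receptor for vascular endothelial growth factor) and Ctnnb1 (beta-catenin) in 4 each. None of the 30 blood cell genes was in more than 3. Ctnnb1 encodes a protein inside the cell rather than on its surface, and it is among the 6 genes of the endothelial list with Hdac1. Over all genes, 28.7% had end peaks in 3 or more lists, as did 4 of the 30.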

How the data were processed

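Per the submitters' processing notes, the tools were bcl2fastq, Bowtie2 2.2.9, SAMtools 1.3.1 and MACS2 2.1.1.20160309, and the build was mm10. Calling thresholds, and whether inputs served as controls, are not stated by those notes. The authors deposited 1 list of peak positions (chromosome, start, end) for each of the 6 ChIP libraries, so peaks were called per library.

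Gene ends came from a RefSeq table of GRCm38, with strand and promoter sequence for 23 of the 30 genes. A call needed 1 bp of overlap with a window of 1000 bp either side of an end. Antibodies were compared by exact two-sided permutation tests (Python 3.11.15, numpy 2.4.6). What was tested on simulated data was the calling of end peaks and of nearest peaks. Libraries of a line are paired by the cell line in their labels. Members and lists were chosen with earlier results of these data known. Genes with end peaks in 3 or more lists are given with every position, the others by list and length, and the rest by their nearest peak. Windows, overlaps, peak width, start only, neighbours and left-out lines were varied.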

Additional observations from a re-analysis of the deposited data

Results flagged for a closer look

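The difference between Hdac1 and Hdac2 took opposite signs in different lines for 3 quantities. The peak length of Hdac1 minus that of Hdac2 at Kit was -103 bp in Bry and 2148 bp in Hd1_loxlox. At Itga2b the differences were -75 bp in Bry and 1287 bp in Hd1_loxlox. The number of protein-coding genes with an end peak was lower for Hdac1 in Bry (-543) and higher for it in Hd1_loxlox (6340) and Hd2lox (2369). In Hd1_loxlox the Hdac2 list had no end peak at Kit or Itga2b, so 2148 and 1287 bp are the lengths of the Hdac1 peaks. That Hdac2 list is the one that stood apart, with end peaks at 2.71% of all genes (594), and it enters the 6340 too. Each line has 1 library per antibody, and the difference between lines was not tested.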

How the results depend on the processing

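Hdac1 end peaks in at least 2 of 3 lines stayed at 3 to 5 genes under every window, overlap, width, start and neighbour setting, and ranged from 0 to 3 when a line was left out. With a line left out, both remaining lines were required and the background was not counted. The Hdac2 count was 1 (Kit) in place of 0 with windows of 5000 bp and 0 in all other settings. At Kit the peak gained was that of Hd1_loxlox 4.12 kb past the gene's far end, from the list that stood apart. The Hdac2 peak of Bry lay at the start, so the Hdac2 peaks of these lines were at opposite ends of Kit. The mean difference between antibodies of 1.33 genes ranged from 0 to 2 when a line was left out. Genes with body peaks only, 4 in the report, were 2 with windows of 2500 bp, 2 with 5000 bp and 2 with the narrowest peaks of each list left out. They were 2 to 4 with a line left out, 5 without peaks shared with a neighbour and 6 with the start of the gene only. The start-only setting cannot call the 7 genes without a promoter entry. Itgb3 and Tyrobp are among those and joined the body peak count for that reason, and Itgb3 left the Hdac1 count likewise. The background in at least 2 lines rose from 28.8% to 35.0% for Hdac1 and from 9.27% to 15.6% for Hdac2 between windows of 500 and 5000 bp. Without Hd1_loxlox the difference in peak length reversed to -37.5 bp at Itga2b and -51.5 bp at Kit. With a line left out it ranged from -37.5 to 643.5 bp at Itga2b, -51.5 to 1074 bp at Kit, 271.5 to 1082 bp at Itgb3, 338.5 to 1095 bp at Gp1bb, and 913 to 4355 genes over all genes. In the paired sign-flip test by line (replicate block), p was 1 at Itga2b and Kit and 0.5 at Itgb3, Gp1bb and over all genes, where 0.25 is the smallest it allows, so it changed no call. Depth is unknown, so what it limits could not be measured.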

Other observations

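The platelet receptor for von Willebrand factor has 4 chains, of which Gp1bb and Gp9 are among the 30 genes and Gp1ba and Gp5 are among the other blood genes. These genes were picked out after their values were seen. Gp5 had end peaks in the Hdac2 list of Bry and both Hd2lox lists, and Gp1ba in the Hdac2 lists of Bry and Hd1_loxlox, while Gp9 had none. In the Hdac1 and Hdac2 lists of Hd2lox alike, the other blood genes with end peaks were Flt3, Itga6, Gp5 and Vav3, 4 of 56 (7.14%), where all genes stood at 24.3% in Hdac1 and 13.5% in Hdac2. Pecam1, Kdr, Flt1, Ctnnb1, Nrp1, Nrp2 and Plvap made up the 7 of 20 endothelial genes with end peaks of Hdac1 in Bry (35%, all genes 31.9%).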
